A study of Mus musculus with 8 samples.

Results

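The light chains and binding proteins of sarcomeric myosin were followed in mouse GAS muscle after knockdown of MYTHO. The members of this gene family set were found in the table by gene symbol, and were the light chain genes *Myl1*, *Myl2*, *Myl3*, *Myl4* and *Myl6b* and the binding protein genes *Mybpc1*, *Mybpc2*, *Mybpc3*, *Mybph* and *Mybphl*. These were 10 of the 22664 gene symbols in the deposited table, which lists 22206 probe sets, and each of the 10 had 1 probe set. Adult male C57/Bl6j mice received AAV of serotype 1 in GAS at about 10 weeks of age, and muscles were taken 3 months later, at a labelled age of 22 weeks. In the MYTHO-KD group (4 muscles) the AAV carried a U6-driven sh-RNA against MYTHO, and in the scramble group (4 muscles) it carried a scrambled sh-RNA injected into the opposite leg, so the control muscles had also received virus. Total RNA of GAS muscle samples was hybridised to Clariom S Mouse arrays. The paper's methods give the weight of these samples and do not name the region of GAS. The table gives the authors' average and standard deviation (SD) of each group on a log2 scale, without single arrays.

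In each thick filament, myosin heavy chains carry an essential and a regulatory light chain on the neck of the motor head, where they stiffen the lever arm and tune the contraction. Myosin-binding protein C lies along part of the thick filament, and also reaches thin filaments, while myosin-binding protein H is its shorter relative. Fast fibres, slow fibres, developing muscle and heart use different members of both families, and GAS is a predominantly fast muscle that also holds slow fibres.

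The targeted gene, listed as *D230025D16Rik*, averaged 10.02 ± 0.37 (SD, n = 4) in scramble and 7.71 ± 0.66 in MYTHO-KD, a 0.202-fold level (95% interval 0.127 to 0.319, limma adjusted p = 0.0138). Averages in the table ran from 3.18 to 19.93, with a median SD of 0.27 in each group, and 16 probe sets sat at the highest value in both groups. The median difference over all probe sets was -0.01, with 46.9% above 0 and 51.4% below. Each difference below is the MYTHO-KD minus the scramble average, and a gene was called, or said to rise or fall, where its level differed by at least 2-fold and its p before adjustment was below 0.05. These limits follow the study's methods. Adjusted p-values are those of limma's moderated test, corrected over all 22206 probe sets by the method of Benjamini and Hochberg, and the precision is limited by the 4 arrays per group.

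Among the 10 genes, *Mybph* rose and the other 9 were not called. Over all probe sets, 0.86% were called higher and 0.257% lower. Without a fold limit, *Mybph* and *Mybpc1* were higher at an unadjusted p under 0.05 and none of the 10 was lower, against 6.48% and 5.52% of all probe sets. After adjustment *Mybph* alone remained higher in the set and none lower, against 0.18% and 0.0946% of all probe sets. The level of *Mybph* was 8.75-fold higher in MYTHO-KD, whereas its closest relative *Mybphl* was near the bottom of the scale in both groups. *Mybpc1*, the slow-type binding protein C, was 1.79-fold higher and stayed under the 2-fold limit. The light chains gave no call in either direction, and those of slow fibres, *Myl2* and *Myl3*, had a spread between muscles that few probe sets exceeded. Of the 10 genes, 6 were above 0, 2 below and 1 at 0, while *Myl1* lay at the top of the scale in both groups, and the median difference was 0.10 over the 9 genes below the top.

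**Figure D1:**
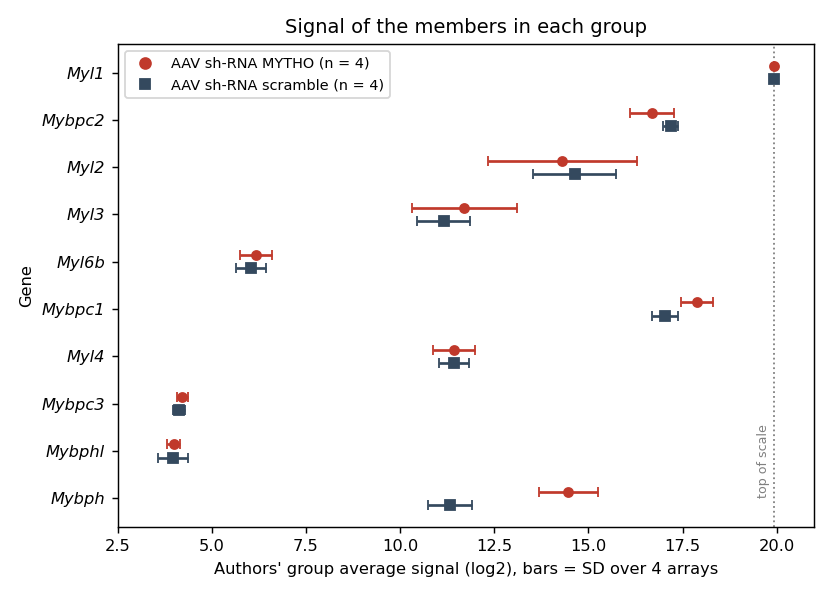
Average log2 signal (x axis) of the 10 genes (y axis) in MYTHO-KD (red circles) and scramble (dark squares), with bars of 1 SD over 4 arrays and a dotted line at the top of the scale, 19.93. *Mybph* is the gene whose bars lie far apart, *Myl2* and *Myl3* have the widest bars, and *Myl1* sits on the dotted line in both groups. Distances between genes are not comparable, since each probe set has its own response.

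Myosin-binding protein H is a thick filament protein of fast and developing skeletal muscle. *Mybph* lies on chromosome 1 from 134193448 to 134201232 on the plus strand (mm10). Its probe set averaged 11.33 ± 0.58 (SD, n = 4) in scramble and 14.46 ± 0.78 in MYTHO-KD. The gap between the averages was 2.3 times the sum of both SDs. The log2 difference was 3.13 ± 0.374 (SE), with a fold interval of 4.98 to 15.4 and a limma adjusted p of 0.00706. Only 4 probe sets of the table, *Mybph* included, were higher in MYTHO-KD by as much. The call at 2-fold held in every setting run, but the adjusted p was 0.158 when the variance was not moderated and 0.297 when the groups were given unequal variances, with a range of 0.00247 to 0.297 over all settings. In muscle tissue, a change in cell numbers cannot be told apart from a change in RNA per cell.

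The genes next to *Mybph* were compared as a local reference. *Chil1*, which encodes a secreted chitinase-like protein, ends 3.27 kb before *Mybph* on the same strand and differed by 0.04 (adjusted p = 0.976). *Adora1*, an adenosine receptor gene on the opposite strand, overlaps the end of *Mybph* and differed by -0.30 (adjusted p = 0.64). Neither neighbour of *Mybph* was called. Around all 10 genes, 2 of 20 neighbours were called, against 1.12% of all probe sets in either direction, and both were chosen for mention after their values were seen. *Spi1*, a transcription factor gene of myeloid cells beside *Mybpc3*, rose by 1.22 (adjusted p = 0.0991), and *Sort1*, the sortilin gene beside *Mybphl*, fell by 1.05 (adjusted p = 0.0771).

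*Mybphl*, the myosin-binding protein H-like gene, is known from atrium and the cardiac conduction system. It lies on chromosome 3 from 108364911 to 108380057 on the plus strand. It averaged 3.97 ± 0.40 in scramble and 3.99 ± 0.17 in MYTHO-KD (n = 4 each). The authors' detection flags mark it as not expressed in both groups, as for 458 probe sets in all, so its difference of 0.02 (interval -0.44 to 0.48) compares background signal.

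The stretches before the transcription starts of the binding protein genes other than *Mybpc3* are shown. They were picked because the values of *Mybph*, *Mybphl*, *Mybpc1* and *Mybpc2* spanned the range of the family, from the called gene to its undetected relative. Each is the 250 bases upstream of the start, 5′ to 3′ on the gene's strand, from RefSeq (GRCm38.p6, the same coordinates as mm10), at chr1:134193198-134193447 for *Mybph* (plus strand), chr3:108364661-108364910 for *Mybphl* (plus strand), chr10:88605153-88605402 for *Mybpc1* (minus strand) and chr7:44524670-44524919 for *Mybpc2* (minus strand). Capitals mark E-boxes, CANNTG, the letters that myogenic bHLH factors and many other proteins can bind.
Mybph: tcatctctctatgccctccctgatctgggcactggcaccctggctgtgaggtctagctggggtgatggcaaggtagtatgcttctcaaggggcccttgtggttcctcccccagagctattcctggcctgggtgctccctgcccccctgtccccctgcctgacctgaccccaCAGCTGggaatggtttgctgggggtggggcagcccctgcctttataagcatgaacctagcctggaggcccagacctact
Mybphl: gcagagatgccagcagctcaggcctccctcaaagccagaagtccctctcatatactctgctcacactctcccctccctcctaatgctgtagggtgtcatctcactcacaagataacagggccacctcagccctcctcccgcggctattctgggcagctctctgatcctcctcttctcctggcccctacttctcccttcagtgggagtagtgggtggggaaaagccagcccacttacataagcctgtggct
Mybpc1: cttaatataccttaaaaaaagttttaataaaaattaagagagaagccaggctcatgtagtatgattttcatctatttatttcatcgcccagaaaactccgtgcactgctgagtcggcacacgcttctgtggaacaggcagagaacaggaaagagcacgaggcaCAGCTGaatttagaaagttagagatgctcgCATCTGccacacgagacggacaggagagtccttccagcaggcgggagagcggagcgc
Mybpc2: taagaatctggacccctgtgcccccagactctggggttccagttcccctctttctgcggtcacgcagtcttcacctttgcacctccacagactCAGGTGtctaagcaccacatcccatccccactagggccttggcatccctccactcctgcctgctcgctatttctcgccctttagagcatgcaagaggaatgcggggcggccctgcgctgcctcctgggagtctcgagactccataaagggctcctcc

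The *Mybph* window holds 1 E-box, CAGCTG, 79 bases before the start, and the *Mybphl* window holds 0. The *Mybpc1* window holds 2, the nearest 57 bases before the start, and the *Mybpc2* window holds 1, at 157 bases. The *Mybpc3* window, not printed, holds 3, of which 1 is CAGCTG, the nearest 80 bases before the start. *Mybpc3* was near the bottom of the scale in both groups, so E-boxes were not limited to the genes with a high signal. An E-box was present in at least 1 window of 8 of the 10 genes and in 66.2% of 32841 promoter windows of the same length, and its form CAGCTG in 5 of the 10 genes and in 13.0% of windows. The 10 genes had 11 windows, as 1 gene, *Myl2*, has 2 starts. Its windows end at 122092723 and 122093188, away from the *Myl2* start of 122100951 given for the arrays. Only 1 of its windows holds CAGCTG, while the shares count single windows. A MEF2 site was found for 1 gene, *Mybpc3* (2.92% of windows), and a CArG box for 1 gene, *Myl3* (1.47% of windows). Both were searched on both strands after the values were seen. The planned search was for CANNTG alone, so the count of CAGCTG was also unplanned. These matches describe letters in the windows, and binding was not measured.

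Mybpc1, Mybpc2 and Mybpc3 are the slow skeletal, fast skeletal and cardiac forms of myosin-binding protein C. *Mybpc1* (chromosome 10, 88518279 to 88605152, minus strand) averaged 17.04 ± 0.34 in scramble and 17.88 ± 0.42 in MYTHO-KD (n = 4 each). The difference of 0.84 ± 0.238 (SE) was a 1.79-fold higher level (interval 1.25 to 2.57) and 1.11 times the sum of both SDs. It was past the unadjusted threshold and below 2-fold, with an adjusted p of 0.179 in limma, and over the settings run the adjusted p ranged from 0.0671 to 0.487. With a 1.5-fold limit *Mybpc1* was called higher along with *Mybph*, as were 3.54% of all probe sets, while none of the 10 was called lower, against 2.25%.

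*Mybpc2* (chromosome 7, 44501699 to 44524669, minus strand) averaged 17.18 ± 0.19 in scramble and 16.68 ± 0.58 in MYTHO-KD. The difference was -0.50 ± 0.259 (SE), with an interval of -1.07 to 0.07, an unadjusted p of 0.0778 and an adjusted p of 0.476 in limma. With a trended and robust prior the unadjusted p was 0.0386, so that *Mybpc2* was then lower at that threshold, with an adjusted p of 0.372 in limma (0.372 to 0.689 over the settings run). The fast form thus had its average on the other side of 0 from the slow form, but the difference between them could not be tested, since that needs the arrays singly. The SD of *Mybpc2* in MYTHO-KD was 3.05 times that in scramble.

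*Mybpc3* (chromosome 2, 91118144 to 91136516, plus strand) averaged 4.12 ± 0.16 in scramble and 4.22 ± 0.15 in MYTHO-KD, near the bottom of the scale. Its difference was 0.10 (interval -0.25 to 0.45, adjusted p = 0.87). The cardiac form therefore stayed at a low signal in both groups, although it was flagged as expressed.

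**Figure D2:**
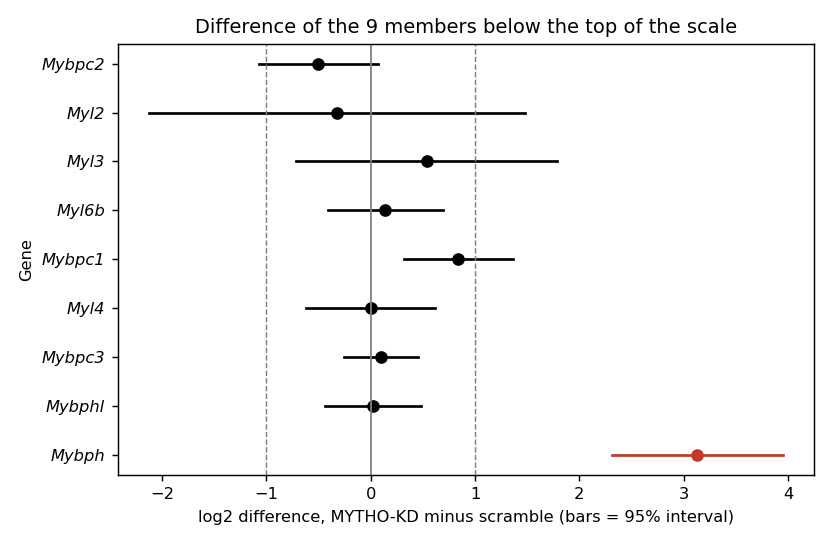
Log2 difference, MYTHO-KD minus scramble (x axis), with its 95% interval for the 9 genes below the top of the scale (y axis), and dashed lines at 2-fold in either direction. The interval of *Mybph* (red, 2.31 to 3.95) lies wholly beyond 2-fold, that of *Mybpc1* (0.32 to 1.36) lies above 0 and includes 2-fold, and the other 7 include 0.

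The essential light chain of fast fibres, *Myl1* (chromosome 1, 66924295 to 66945404, minus strand), was listed at 19.93 with an SD of 0 in both groups. This is the highest value in the table, so both groups were saturated and no fold is given. The regulatory light chain of fast fibres, *Mylpf*, lay just under it, at 19.59 ± 0.12 in scramble and 19.64 ± 0.07 in MYTHO-KD, a difference of 0.05 (adjusted p = 0.944). For the fast light chains the arrays thus had little or no room to show a higher level.

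The regulatory light chain of slow fibres and cardiac ventricle is encoded by *Myl2* (chromosome 5, 122100951 to 122113472, plus strand). It averaged 14.63 ± 1.11 in scramble and 14.31 ± 1.99 in MYTHO-KD (n = 4 each). The difference of -0.32 ± 0.823 (SE) had an interval of -2.12 to 1.48, or 0.231- to 2.78-fold, and an adjusted p of 0.931. Changes of more than 2-fold in either direction lie inside this interval, so the data do not place *Myl2* on either side.

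*Myl3* (chromosome 9, 110763646 to 110769804, plus strand) encodes the matching essential light chain of slow fibres and ventricle. It averaged 11.16 ± 0.70 in scramble and 11.70 ± 1.39 in MYTHO-KD. The difference was 0.54 ± 0.571 (SE), with an interval of -0.71 to 1.79 and an adjusted p of 0.78. The averages of the slow regulatory and essential light chains thus lay on opposite sides of 0, each by less than its own SD in either group.

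The spread itself set both slow light chains apart from most of the table. An SD as large as that of *Myl2* was found in 0.0991% of probe sets in MYTHO-KD and in 0.18% in scramble. For *Myl3* these shares were 0.239% and 1.55%. The SD of *Myl2* was 1.79 times and that of *Myl3* 1.99 times as large in MYTHO-KD as in scramble, while over all probe sets 48.1% had the larger SD in MYTHO-KD. In the set of 10 the larger SD was in MYTHO-KD for 7 genes and in scramble for 2. No test of unequal spread was made, since genes of a muscle share its RNA.

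Slow fibre genes outside the set also had wide spreads. Of 10 such genes, 9 had the larger SD in MYTHO-KD, and the median SD was 2.11 there and 0.745 in scramble. In MYTHO-KD 6 of the 10 had an SD of 2 or more, among 21 such probe sets in the whole table, and none had one in scramble, where the highest was 1.43. The slow heavy chain *Myh7* averaged 12.40 ± 1.30 in scramble and 11.67 ± 3.26 in MYTHO-KD, and the slow troponin I gene *Tnni1* had the widest spread of the list, 3.67 in MYTHO-KD. Which muscles were high or low for these genes, and whether they were the same muscles, cannot be read from group values. The paper states that regions of GAS differ in fibre type composition. The region taken for RNA is not named, and its part in the spread was not tested. By contrast, the fast fibre list had a median SD of 0.105 in MYTHO-KD and 0.06 in scramble, with 3 of its 12 genes at the top of the scale. The mean level of the list was 19.17 in scramble and 19.13 in MYTHO-KD, close to the top at 19.93. How far the top of the scale narrows these SDs was not tested.

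**Figure D3:**
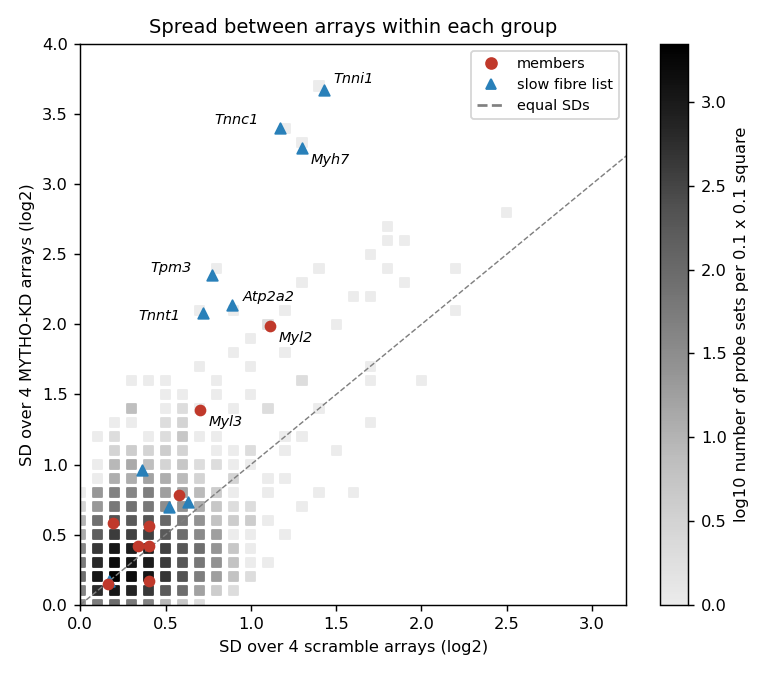
SD over 4 scramble arrays (x axis) against SD over 4 MYTHO-KD arrays (y axis), both log2. Red circles are the 9 genes of the set below the top of the scale, without *Myl1*. Blue triangles are the slow fibre list, and grey squares are all probe sets, darker for more probe sets. The dashed line marks equal SDs. *Myl2* (1.11 and 1.99) and *Myl3* (0.70 and 1.39) lie above it, in the direction of *Tnni1*, *Tnnc1*, *Myh7*, *Tpm3*, *Atp2a2* and *Tnnt1*.

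*Myl4* and *Myl6b* are essential light chains outside the main adult forms, *Myl4* of atrium and embryonic muscle and *Myl6b* of slow muscle and non-muscle cells. *Myl4* (chromosome 11, 104550663 to 104595753, plus strand) averaged 11.42 in both groups, with an SD of 0.40 in scramble and 0.56 in MYTHO-KD, and its interval was -0.62 to 0.62. *Myl6b* (chromosome 10, 128494157 to 128498685, minus strand) averaged 6.04 ± 0.40 in scramble and 6.18 ± 0.42 in MYTHO-KD. Its difference was 0.14 (interval -0.41 to 0.69, adjusted p = 0.889). For both genes the interval excludes a change of 2-fold in either direction.

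The other light chain genes of the table gave no call. The 7 that were measured had differences from 0.00 for the atrial regulatory light chain *Myl7* to 0.43 for the non-muscle regulatory light chains *Myl12a* and *Myl12b* (adjusted p = 0.701 and 0.559). *Myl6*, the non-muscle essential light chain gene 0.282 kb from *Myl6b*, differed by 0.15. Among 8 genes of light chain phosphorylation, none was called, and the median difference was 0.01. The highest was *Mylk*, the smooth muscle light chain kinase, at 0.58 (adjusted p = 0.462), and the lowest was *Mylk4* at -0.59 (adjusted p = 0.494).

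The sarcomeric heavy chains, to which the light chains bind, gave 1 gene called higher and none lower among 9, against 0.86% and 0.257% of all probe sets. Embryonic *Myh3* averaged 6.46 ± 0.63 in scramble and 7.73 ± 1.28 in MYTHO-KD, a difference of 1.27 ± 0.527 (SE). Its adjusted p was 0.366, and it was no longer called without variance moderation (adjusted p = 0.59), with a trended prior (adjusted p = 0.432) or with unequal variances (adjusted p = 0.654). The fast chains *Myh4* and the perinatal *Myh8* were at the top of the scale in both groups, like *Myl1*. *Myh1* differed by 0.59 (adjusted p = 0.23) and *Myh2* by 0.41 (adjusted p = 0.315), the latter from 19.50 to 19.91 and so close to the top. The other chains were *Myh7* at -0.73 (adjusted p = 0.883), *Myh13* at -0.26, *Myh7b* at 0.04 and *Myh6* at 0.08. Heavy chain genes share long stretches of sequence, and how well the probes tell them apart was not tested.

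Of 14 other thick filament and M-band genes, 1 was called higher and none lower, against 0.86% and 0.257% of all probe sets. This was *Myom3*, an M-band protein gene, from 8.32 ± 0.42 to 9.61 ± 0.73 (difference 1.29 ± 0.331 SE, adjusted p = 0.146). The median difference of the 14 genes was -0.055, and the lowest was *Unc45b*, a chaperone of myosin, at -0.62 (adjusted p = 0.268). In the slow fibre list 1 of 10 genes was called higher and none lower, against the same shares. The Z-disc gene *Myoz2* rose by 1.14 (adjusted p = 0.20), and *Tnni1* was lowest at -1.03 (adjusted p = 0.839), with a median of -0.175. In the fast list none was called, the median was -0.15 over the 9 genes below the top, and values ran from -0.27 for *Casq1*, the calcium-binding protein of the sarcoplasmic reticulum, to 0.59 for *Myh1*. The medians of both fibre type lists thus lay below 0.

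The developmental and regeneration list held 2 genes called higher of 11, against 0.86% of all probe sets. The fusion protein gene *Mymk*, listed as *Tmem8c*, rose from 5.90 ± 0.22 to 7.67 ± 0.91 (difference 1.77 ± 0.362 SE, adjusted p = 0.0749), and *Myh3*, whose call was lost in the 3 settings given above, was the other. The median was 0.185 over 10 genes below the top, against -0.01 for all probe sets, and the lowest was the myogenic factor *Myod1* at -0.40 (adjusted p = 0.577). Over all 64 genes listed around the set, apart from cell type markers, 4 were called higher and none lower at 2-fold, against 0.86% and 0.257% of all probe sets.

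Among markers of other cell types, 3 of 10 macrophage and 2 of 6 fibroblast genes were called higher and none lower. Over all probe sets these shares were 0.86% and 0.257%. All 10 macrophage markers were above 0, with a median of 0.575 and a mean level of 6.97 in scramble and 7.89 in MYTHO-KD. Of these, *Cd68* (lysosomal glycoprotein) rose by 2.53 (adjusted p = 0.0182), *Lyz2* (lysozyme) by 1.94 (adjusted p = 0.0277) and *C1qb* (complement) by 1.27 (adjusted p = 0.0754), and *Cx3cr1* was lowest at 0.01. All 6 fibroblast markers were above 0, with a median of 0.56 and 2 calls, the matrix genes *Lum* at 1.49 (adjusted p = 0.0443) and *Col3a1* at 1.43 (adjusted p = 0.102), and *Pdgfra* was lowest at 0.18. The mean fibroblast level was 10.7 in scramble and 11.45 in MYTHO-KD, and no macrophage or fibroblast marker was flagged as not expressed. The part of these cells in the difference of *Mybph* was not tested.

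The other marker lists gave no call. All 6 endothelial markers were above 0, with a median of 0.45, from *Pecam1* at 0.22 to *Kdr* at 0.75, and a mean level of 10.48 in scramble and 10.94 in MYTHO-KD. Smooth muscle markers had a median of 0.18, from *Tagln* at -0.15 to *Myh11* at 0.25, and Schwann cell markers a median of 0.05, from *Sox10* at -0.30 to *Pmp22* at 0.28. The 8 cardiac markers had a median of -0.045, from *Ryr2* at -0.65 to *Tnni3* at 0.13, and a low mean level, 5.23 in scramble and 5.10 in MYTHO-KD, beside the low levels of *Mybpc3* and *Mybphl*. The 8 skeletal fibre markers, which check the tissue label, had mean levels of 17.03 and 17.15, from *Ryr1* at -0.39 to myoglobin *Mb* at 0.93, with 1 gene at the top of the scale.

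**Figure D4:**
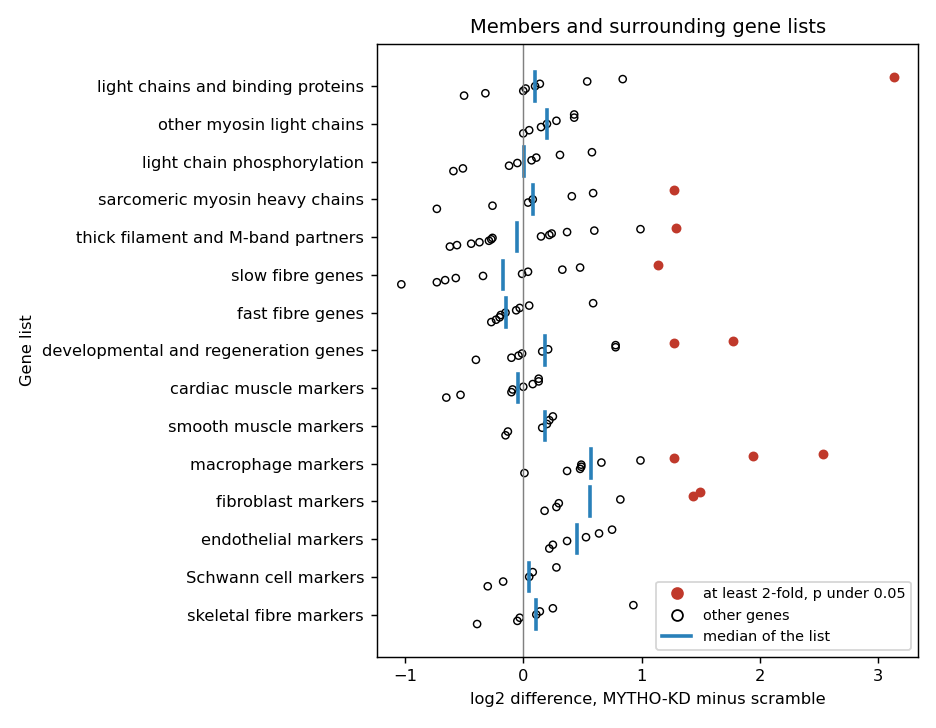
Log2 difference, MYTHO-KD minus scramble (x axis), of each gene below the top of the scale in the set of 10 (first row) and in 14 lists (y axis), with blue bars for the list medians and filled red circles for genes called at 2-fold with p under 0.05. *Mybph*, at 3.13, lies farthest to the right of all genes drawn, followed by *Cd68* at 2.53.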

How the data were processed

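GAS RNA from 8 arrays was measured. Per the labels and the study's methods, the authors normalised the signals by RMA (SST-RMA) and deposited 1 table with a log2 average, an SD and a detection flag per group and probe set. It holds 0 columns of single arrays, and the authors' fold changes, p-values and false discovery rates were not used. The planned limma fit on arrays was therefore replaced by the same moderated test from averages and SDs (limma 3.58.1, R 4.3.3): pooled variance with 6 residual degrees of freedom, squeezeVar (prior SD 0.284, prior df 5.847), two-sided p, Benjamini-Hochberg adjustment over 22206 probe sets. On simulated unpaired arrays with normal noise and plain means, it gave the same p-values as limma run on the arrays. That check covers the calculation only, and not paired legs, other kinds of average or saturated values. Whether the averages are plain means is not stated, and if not, the p-values are approximate. No filter was set. Members and lists were chosen with earlier results of these data known. Named genes are the members, heavy chains, called genes and extremes of each list, and neighbours of called members, while *Mylpf*, *Myl6*, *Spi1*, *Sort1* and the slow fibre genes labelled in the plot of SDs were named outside this rule, after their values were seen. Alternatives changed the variance model, probe sets, centring and thresholds. RefSeq promoter windows were searched for motifs.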

Additional observations from a re-analysis of the deposited data

How the results depend on the processing

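Of 96 values of the 10 genes in other settings, 95 stayed called or not called as in the main setting. The other 1, *Mybpc1*, passed when 1.5-fold replaced 2-fold. *Myl1* and *Myl4*, at 0 in the main setting, moved to 0.01 when the median difference was subtracted. *Myl1* had no p-value without moderation or with unequal variances, and was counted as not called there. The 1.5-fold limit moved the genes called higher from 1 to 2 in the set. Among the 64 genes listed around it, those called higher went from 4 to 9 and lower from 0 to 1. At the 2-fold limit, 3 of them were called higher without variance moderation and 3 with a trended and robust prior. With the median difference subtracted, 5 were called higher. Over all probe sets, 3.54% were called higher and 2.25% lower at 1.5-fold. Leaving out probe sets with an SD of 0 was chosen after seeing the data. No paired analysis was possible because the table holds group averages and its columns carry no replicate numbers, although both legs of a mouse were used, so neither the replicate block nor leaving out a muscle was run. Every gene had 1 probe set, so other probe sets gave no value. Saturation limits *Myl1*, and background signal limits *Mybphl*.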
